A study of Homo sapiens with 6 samples.

Results

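The PI3K, AKT and SGK signaling genes are a group of 9 genes set by name: PIK3R1, PIK3R2, PIK3CA, PIK3CB, AKT1, AKT2, SGK1, RICTOR and TSC2. They were chosen by symbol, current or older, and every probe annotated to them was taken, which gave 17 of the 47310 probes on the array. Of the 9 genes, 7 had a probe and 5 were above background and tested (PIK3R1, PIK3CB, AKT1, SGK1 and TSC2). AKT2 and RICTOR had probes that were not above background, and PIK3R2 and PIK3CA, for which no probe was annotated, were not analysed here. SGK1 and PIK3R1 rose in PTTG1-/- cells, by more than 2-fold with the main processing, and no tested member fell. Under other settings their log2 differences went down to 0.88 and 0.87, which is under 2-fold.

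HCT116 is a colorectal carcinoma cell line. The study compared the line labelled WT (PTTG1+/+) with a derivative labelled PTTG KO (PTTG1-/-), in which PTTG1 was removed by homologous recombination, to look for genes that depend on PTTG1. Total RNA of 3 samples of each line, with no treatment named, was hybridised to Illumina HumanHT-12 V4 arrays, where a probe is brighter the more of its transcript is present. The sources used here do not say whether the knockout is 1 clone or whether the samples of a line were separate cultures, so a p-value covers only how these 3 samples per line scatter, which may be technical scatter, and the effect of losing PTTG1 and any other difference of the derived line cannot be told apart.

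The targeted gene PTTG1, which encodes the separase inhibitor securin, checks the labels. Its probe ILMN_1753196 was at 10.77, 10.76 and 10.84 on the log2 scale in the PTTG1+/+ samples and was not above background in any of the 3 PTTG1-/- samples, at least 49.2-fold lower (adjusted p = 2.23e-09). A second PTTG1 probe, ILMN_2042771, remained above background in all samples and was 1.87-fold lower (adjusted p = 0.00154). Between 35.7% and 37.3% of probes were above background on an array, and the lowest intensity called so was 72.7 to 79.3. Of 12 colorectal epithelial markers, 6 were above background on all 6 arrays (EPCAM, CDH1, KRT8, KRT18, KRT19 and CDX2) and 5 on none (CDX1, VIL1, CEACAM5, LGALS4 and CLDN4).

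Class I PI3K is a lipid kinase made of a catalytic subunit (PIK3CA or PIK3CB here) and a regulatory subunit (PIK3R1 or PIK3R2) that brings it to activated receptors and adaptors. The lipid it makes recruits AKT kinases to the membrane, where PDK1 and the mTORC2 complex, defined by RICTOR, phosphorylate them. SGK1 is a related kinase that uses the same activating kinases, lacks AKT's lipid-binding domain and is controlled in large part through its transcription. AKT restrains TSC2, which holds RHEB and so mTORC1 in check.

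The promoters of SGK1 and PIK3R1 are shown because these were the members that rose. RefSeq lists 3 start sites for SGK1 and 4 for PIK3R1, and which of them the array probes report was not analysed here. For each gene, a GC-rich window and a window that holds the element AGAACA are printed, each from 250 bases before to 50 bases after the start, 5′ to 3′ on the gene's strand (RefSeq, GRCh38.p14). In the first window of each gene capitals mark GGGCGG or its reverse complement CCGCCC, the GC box that Sp factors bind. In the other window of each gene capitals mark AGAACA, 1 arm of the palindrome bound by the glucocorticoid receptor.
SGK1 chr6:134174817-134175116, minus strand: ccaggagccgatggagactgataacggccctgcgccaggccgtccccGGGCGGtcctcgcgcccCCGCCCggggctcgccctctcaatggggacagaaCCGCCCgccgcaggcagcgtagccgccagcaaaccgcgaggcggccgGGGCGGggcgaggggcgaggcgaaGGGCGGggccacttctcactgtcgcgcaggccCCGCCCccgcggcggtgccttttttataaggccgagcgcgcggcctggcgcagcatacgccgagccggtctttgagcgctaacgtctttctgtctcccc
SGK1 chr6:134177812-134178111, minus strand: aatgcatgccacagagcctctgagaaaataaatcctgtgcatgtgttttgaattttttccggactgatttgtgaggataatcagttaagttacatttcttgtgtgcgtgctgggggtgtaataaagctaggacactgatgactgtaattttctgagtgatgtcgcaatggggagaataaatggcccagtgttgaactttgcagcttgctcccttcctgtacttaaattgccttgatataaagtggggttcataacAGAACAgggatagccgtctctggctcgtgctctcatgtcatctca
PIK3R1 chr5:68215506-68215805, plus strand: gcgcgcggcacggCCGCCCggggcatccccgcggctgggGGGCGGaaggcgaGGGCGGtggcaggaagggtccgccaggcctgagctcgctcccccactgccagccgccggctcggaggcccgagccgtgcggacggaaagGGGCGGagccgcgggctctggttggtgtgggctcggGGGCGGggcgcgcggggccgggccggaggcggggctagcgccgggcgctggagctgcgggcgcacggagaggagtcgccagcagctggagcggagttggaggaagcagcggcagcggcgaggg
PIK3R1 chr5:68290414-68290713, plus strand: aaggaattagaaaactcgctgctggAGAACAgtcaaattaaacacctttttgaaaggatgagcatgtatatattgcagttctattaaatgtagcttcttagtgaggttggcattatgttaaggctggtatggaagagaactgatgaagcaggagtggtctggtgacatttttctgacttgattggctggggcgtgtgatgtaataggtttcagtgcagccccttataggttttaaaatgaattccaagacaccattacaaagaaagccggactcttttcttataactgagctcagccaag

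The first SGK1 window held 6 GC boxes and was 73.3% G or C, and the first PIK3R1 window held 5 and was 80.0% G or C, against a median of 58.7% over all 35116 RefSeq windows. A GC box (GGGCGG, either strand) was found in 13 of the 18 windows of the 9 members and in 45.0% of all windows. AGAACA or TGTTCT was found in 4 of the 18, against 14.8% of all windows: at base 6 after the SGK1 start, at base -225 of the printed PIK3R1 window and base 42 of another PIK3R1 window, and at base -95 of an AKT2 window. The full palindrome, AGAACA and TGTTCT with 3 bases of any kind between them and so a match to that arm on both strands, was in 0 of the 18 and in 0.00285% of all windows. The forkhead element GTAAACA (other strand TGTTTAC) was in 1 of the 18, at PIK3CA, and in 3.42% of all windows. A match is a run of letters and was not tested for binding.

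SGK1, the serum- and glucocorticoid-regulated kinase, rose in PTTG1-/- cells on each of its 3 probes above background. Probe ILMN_1702487 was at 6.47, 6.48 and 6.48 in the PTTG1+/+ samples and at 7.63, 7.66 and 7.62 in the PTTG1-/- samples (log2 of the background-corrected, quantile-normalized intensity). The samples of each line lay within 0.05 of each other and the lines did not overlap. The difference, PTTG1-/- minus PTTG1+/+, was 1.16 on the log2 scale (SE 0.07, 95% interval 1.00 to 1.31), or 2.23-fold (limma, adjusted p = 1.18e-05 over 10642 genes). The unnormalized intensities of this probe were 132.0, 125.3 and 130.4 in PTTG1+/+ and 228.1, 239.4 and 265.2 in PTTG1-/- samples, so the order was there before any processing.

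The other SGK1 probes gave the same direction. ILMN_3305938 was at 5.64, 5.53 and 5.62 against 6.57, 6.72 and 6.94, a difference of 1.15 (SE 0.10, adjusted p = 0.000275 over 17357 probes). ILMN_3229324 was at 5.54, 5.58 and 5.57 against 6.43, 6.51 and 6.41, a difference of 0.89 (SE 0.077, adjusted p = 0.000199). On both probes every PTTG1-/- sample was above every PTTG1+/+ sample. Both probes had unnormalized intensities of 84.0 to 92.0 in the PTTG1+/+ samples, close to the lowest intensity called above background, which limits how well their fold change is known. The remaining SGK1 probe, ILMN_1853711, which is annotated to an expressed sequence tag and not to a RefSeq transcript, was not above background in any sample.

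**Figure D1:**
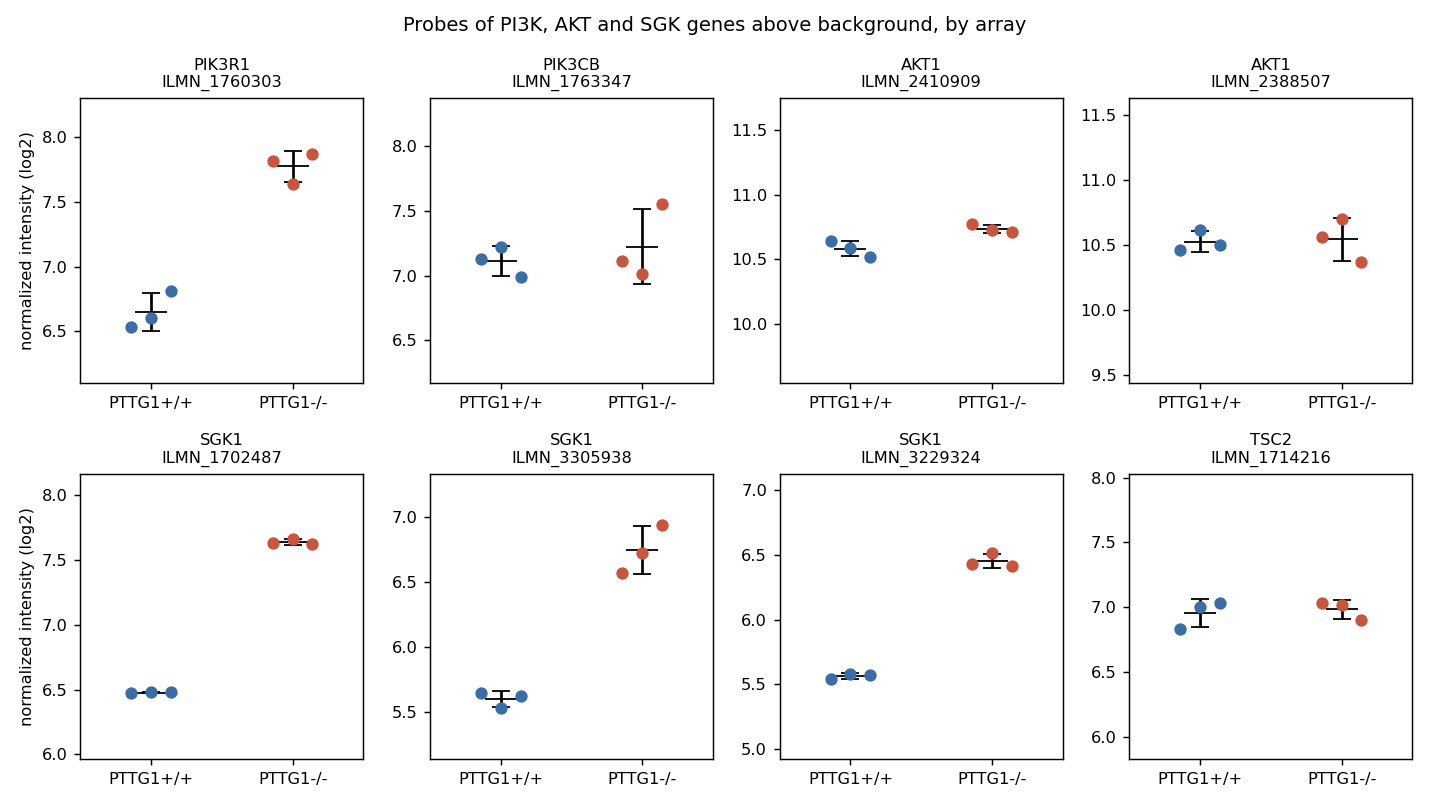
Normalized intensity (log2) of the 8 member probes above background, 1 panel a probe. Points are single samples (blue PTTG1+/+, red PTTG1-/-, 3 each), the long bar is the mean and the whiskers are SD. All panels span the same range of log2 units at different heights. The samples of the lines are apart by about 1 log2 unit for PIK3R1 and the 3 SGK1 probes.

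PIK3R1, the regulatory subunit alpha of class I PI3K, rose on its single probe above background. Probe ILMN_1760303 was at 6.53, 6.60 and 6.81 in the PTTG1+/+ samples and at 7.81, 7.64 and 7.87 in the PTTG1-/- samples. The lowest PTTG1-/- sample was above the highest PTTG1+/+ sample. The difference was 1.13 (SE 0.10, 95% interval 0.90 to 1.35), or 2.18-fold (limma, adjusted p = 0.000166). Its unnormalized intensities were 136.2, 132.6 and 152.5 in PTTG1+/+ and 253.3, 236.2 and 305.7 in PTTG1-/- samples. The other 4 PIK3R1 probes were not above background in any of the 6 samples, and they had intensities of 37.4 to 66.9. The 5 probes are annotated to 3 RefSeq transcripts, and 1 of the dim probes carries the same transcript as the probe that rose, so the difference rests on 1 probe.

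In all, 2 of the 5 tested member genes were higher at an adjusted p under 0.05, where 9.58% of all 10642 genes were, and 0 were lower, where 7.79% were. The count lower was also 0 at an unadjusted p under 0.05 and by the methods' t-test, which called 413 of the 10642 genes lower. With the main processing both were also at least 2-fold higher, as were 0.376% of all genes, and they had the 27th (SGK1) and 32nd (PIK3R1) largest rise. Without background correction both were under 2-fold (log2 differences of 0.88 for SGK1 and 0.87 for PIK3R1). By probe, 4 of the 8 tested were higher, where 6.88% of all 17357 probes were, 0 were lower, where 5.88% were, and 4 did not pass. The lines did not overlap on 5 of the 8 probes, as on 33% of all probes. The 5 genes are too few for a statement about the group. The study followed up SGK1 and PIK3R1 by PCR after these arrays, with genes it says were drawn at random, and lists both as up-regulated by PCR and array. The direction given here comes from the same arrays, so it is not independent evidence. In bulk RNA, a higher level in each cell and a larger share of cells that express the gene cannot be told apart. An exact permutation test of single values, two-sided, cannot go below p = 0.1 with 3 against 3 samples.

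Markers of other cell types were mostly at background. PTPRC, CD3E and LYZ among 7 blood markers with a probe were on 0 arrays, but CD68 (0.56, adjusted p = 0.00191) and HBA1 (0.44, adjusted p = 0.0264) rose in PTTG1-/- cells, and the summed blood marker intensity was 606.2 to 661.8 in PTTG1+/+ and 726.4 to 802.8 in PTTG1-/- samples. All 4 endothelial markers and 7 of 8 fibroblast markers were on 0 arrays, and the eighth, COL1A1, differed by -0.15 (adjusted p = 0.62). Of the epithelial markers, EPCAM (-0.32, adjusted p = 0.0337) and CDH1 (-0.53, adjusted p = 0.00395) fell, and KRT19 (0.24, adjusted p = 0.0522), KRT8 (-0.17), KRT18 (0.06) and CDX2 (0.03) did not pass. The part of these genes in the rise of SGK1 and PIK3R1 was not tested.

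PIK3CB, the catalytic subunit beta, was at 7.13, 7.22 and 6.99 in the PTTG1+/+ samples and at 7.11, 7.01 and 7.55 in the PTTG1-/- samples. The lines overlapped, and 1 PTTG1-/- sample lay above the other 5. The difference was 0.11 (SE 0.14, 95% interval -0.20 to 0.42, adjusted p = 0.624), an interval that leaves room for a change of up to 1.34-fold upward. Of 7 other class I subunits and direct regulators, 2 were above background and neither passed, also at an unadjusted p under 0.05: the catalytic subunits PIK3CD (-0.14, adjusted p = 0.637) and PIK3CG (-0.06, adjusted p = 0.676). As 17.4% of all genes passed, 2 genes are too few for a statement about the list. The difference between PIK3R1 and its catalytic partners was not tested.

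None of the 4 tested class II and class III PI3K genes passed by limma or by the methods' t-test. Over all 10642 genes, 1849 (17.4%) passed by limma and 936 by the t-test, so 4 genes are too few for a statement about the list. At an unadjusted p under 0.05 there were 2, PIK3R4 higher and PIK3C2A lower. The share of all genes at that p was not worked out here. PIK3R4, the regulatory partner of the class III enzyme in autophagy, was 0.43 higher (SE 0.18, adjusted p = 0.127) and PIK3C3, its catalytic subunit, 0.17 lower (difference -0.17, adjusted p = 0.395). PIK3C2A, of class II, differed by -0.31 (adjusted p = 0.0818). Its second probe, ILMN_2166093, gave -0.06 with overlap (adjusted p = 0.823 over probes). That probe was above background on 5 arrays, with unnormalized intensities of 74.4 to 96.7, close to the lowest called so. Without PTTG1+/+ sample 3 PIK3R4 passed (0.61, adjusted p = 0.0372), and without PTTG1-/- sample 3 PIK3C2A did (-0.42, adjusted p = 0.0141).

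Among the phosphatases that oppose the pathway, 7 of 13 were tested and 1 rose, where 9.58% of all genes rose. The median difference was 0.02 over the list and 0 over all genes. INPPL1 (SHIP2), which removes a phosphate from the lipid PI3K makes, was at 9.11, 9.23 and 9.24 in PTTG1+/+ and at 9.69, 9.69 and 9.49 in PTTG1-/- samples. Its difference was 0.43 (SE 0.087, adjusted p = 0.0101), and the lines did not overlap. PHLPP1, a protein phosphatase of AKT, differed by 0.42 with overlapping samples (adjusted p = 0.0988) and passed without PTTG1-/- sample 1 (0.61, adjusted p = 0.0135), while INPP5E, another lipid phosphatase, differed by -0.13 (adjusted p = 0.331).

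AKT1, the first of the AKT kinases, differed little on its 2 probes above background. ILMN_2410909 was at 10.64, 10.59 and 10.52 in the PTTG1+/+ samples and at 10.77, 10.73 and 10.71 in the PTTG1-/- samples. The lines did not overlap on this probe, as for 36.1% of all genes in either direction and 19.5% upward, but the difference of 0.15 (SE 0.074, 95% interval -0.01 to 0.32) did not pass (adjusted p = 0.194). The upper bound of that interval is a 1.25-fold rise, below the lower bound of 1.87-fold for PIK3R1 and 2.00-fold for SGK1. ILMN_2388507 was at 10.46, 10.62 and 10.50 against 10.56, 10.70 and 10.37, with overlap and a difference of 0.02 (SE 0.10, adjusted p = 0.939). A further AKT1 probe, ILMN_1748661, was not above background in any sample.

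AKT2, the second AKT kinase, was measured by 1 probe, ILMN_1743347, with intensities of 42.2, 51.6 and 52.4 in PTTG1+/+ and 56.8, 47.8 and 54.7 in PTTG1-/- samples. All 6 values were below the lowest intensity called above background, so no fold is given. Of the other 4 AKT and SGK kinases and PDK1, SGK3 and PDPK1 were tested. SGK3, which binds endosomal lipid, fell where SGK1 rose: it was at 7.12, 7.19 and 7.04 against 6.91, 6.80 and 6.76, without overlap. The difference was -0.30 (SE 0.08, adjusted p = 0.0334), and its second probe, ILMN_2366703, gave -0.36 (adjusted p = 0.0357 over probes). The SGK3 call was lost without PTTG1+/+ sample 1, 2 or 3 or PTTG1-/- sample 2 or 3 (adjusted p = 0.0526 to 0.131, limma). PDPK1, which encodes PDK1, differed by -0.28 with overlap (adjusted p = 0.272) and passed without PTTG1-/- sample 3 (-0.48, adjusted p = 0.0128). Its second probe, ILMN_1653793, gave -0.39 without overlap and did not pass (SE 0.11, adjusted p = 0.0503 over probes).

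**Figure D2:**
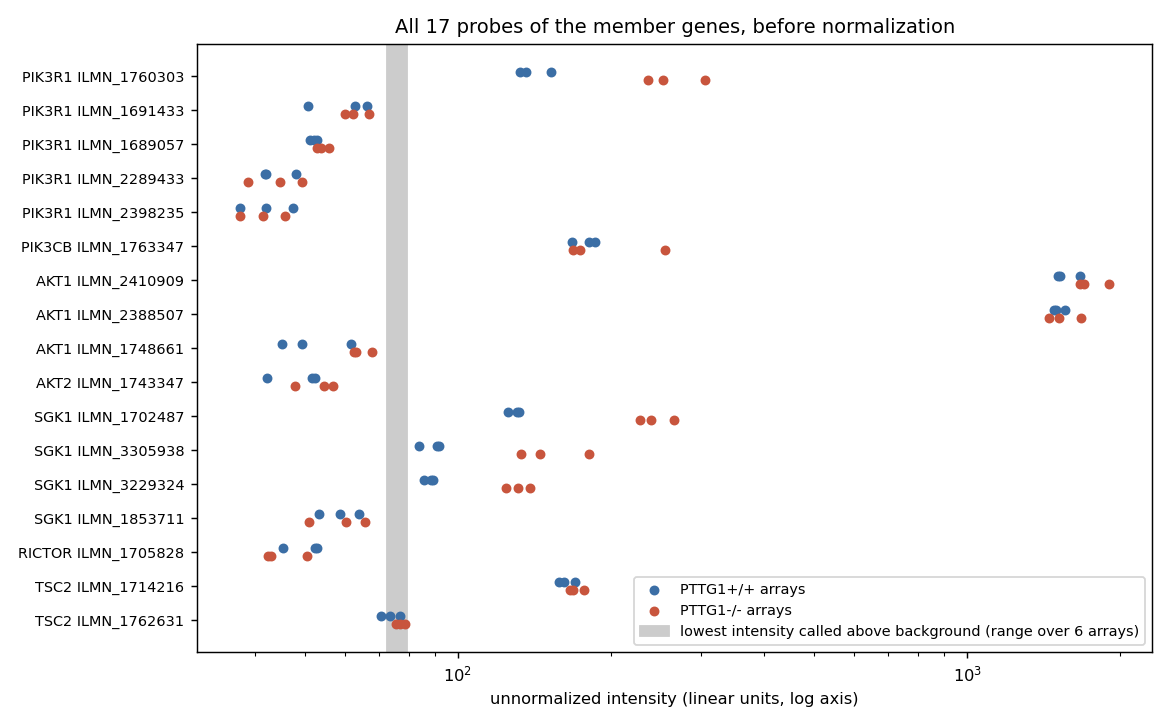
Unnormalized intensity (linear units on a log axis) of all 17 member probes in the 3 PTTG1+/+ (blue) and 3 PTTG1-/- (red) samples, with the lowest intensity called above background on the 6 arrays (72.7 to 79.3) in grey. Of the probes, 8 lie right of the grey band, 8 lie left of it, among them those of AKT2 and RICTOR, and 1 TSC2 probe lies about it. Levels of different probes are not comparable.

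RICTOR, the subunit that defines mTORC2, was measured by 1 probe, ILMN_1705828. Its intensities were 52.9, 45.4 and 52.4 in PTTG1+/+ and 42.3, 42.9 and 50.5 in PTTG1-/- samples, not above background in any. Of 8 other mTORC2 components, 6 were tested and 1 fell, where 7.79% of all genes fell. MLST8, a subunit shared by mTORC1 and mTORC2, was at 8.20, 8.32 and 8.30 against 7.79, 8.03 and 7.87, a difference of -0.38 (SE 0.087, adjusted p = 0.0174) without overlap. That call was lost without PTTG1+/+ sample 2 (adjusted p = 0.0725), PTTG1+/+ sample 3 (0.0577) or PTTG1-/- sample 1 (adjusted p = 0.0579). MAPKAP1 (SIN1), which binds the kinase substrates of mTORC2, differed by 0.12 (adjusted p = 0.346) and PRR5 (protor-1) by 0.09 (adjusted p = 0.477).

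TSC2, the GTPase-activating subunit that turns RHEB off, was at 6.83, 7.0 and 7.03 in PTTG1+/+ and at 7.03, 7.02 and 6.90 in PTTG1-/- samples on probe ILMN_1714216. The lines overlapped fully and the difference was 0.03 (SE 0.085, 95% interval -0.16 to 0.22, adjusted p = 0.846). The second TSC2 probe, ILMN_1762631, was above background on 2 of the 6 arrays, 1 of each line, and was not tested. Of the 6 further genes of the TSC complex, RHEB and mTORC1 all were tested and none passed by limma or the methods' t-test, with a median of 0. By limma 17.4% of all 10642 genes passed and by the t-test 936, so 6 genes are too few for a statement about the list. RHEBL1, a RHEB relative, was the 1 gene under an unadjusted p of 0.05 (-0.29, adjusted p = 0.0582), followed by AKT1S1 (PRAS40), an mTORC1 inhibitor that AKT phosphorylates (-0.18, adjusted p = 0.385), and TBC1D7, the third TSC subunit (0.05, adjusted p = 0.782).

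Downstream of mTORC1, 9 of 10 genes were tested. Of these 2 fell and none rose, where 7.79% of all genes fell and 9.58% rose, too few genes for a statement about the list. At an unadjusted p under 0.05 the counts were 3 and 0, and the share of all genes at that p was not worked out here. By the methods' t-test 0 passed, where 936 of all 10642 genes did. RPS6KB1, which encodes the ribosomal S6 kinase, was at 9.89, 9.68 and 9.87 against 9.56, 9.39 and 9.56, a difference of -0.31 (SE 0.09, adjusted p = 0.0436). PDCD4, a translation inhibitor that this kinase targets for degradation, was at 8.80, 8.85 and 8.89 against 8.58, 8.64 and 8.40 (difference -0.31, SE 0.086, adjusted p = 0.0385). Neither overlapped between lines, nor did 36.1% of all genes, and both lay near the threshold. In the limma fit over all probes neither passed (adjusted p = 0.0615 for RPS6KB1 and 0.0555 for PDCD4). A second PDCD4 probe, ILMN_1768004, was above background on 4 arrays and gave -0.40 with overlap (adjusted p = 0.0895 over probes). The PDCD4 call was lost without any 1 of the 6 samples (adjusted p = 0.0502 to 0.115), and the RPS6KB1 call without PTTG1+/+ sample 1 or 3 or PTTG1-/- sample 1 or 2 (adjusted p = 0.0708 to 0.143). EIF4EBP2, a translation repressor that mTORC1 inactivates, differed by -0.24 (adjusted p = 0.0959).

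**Figure D3:**
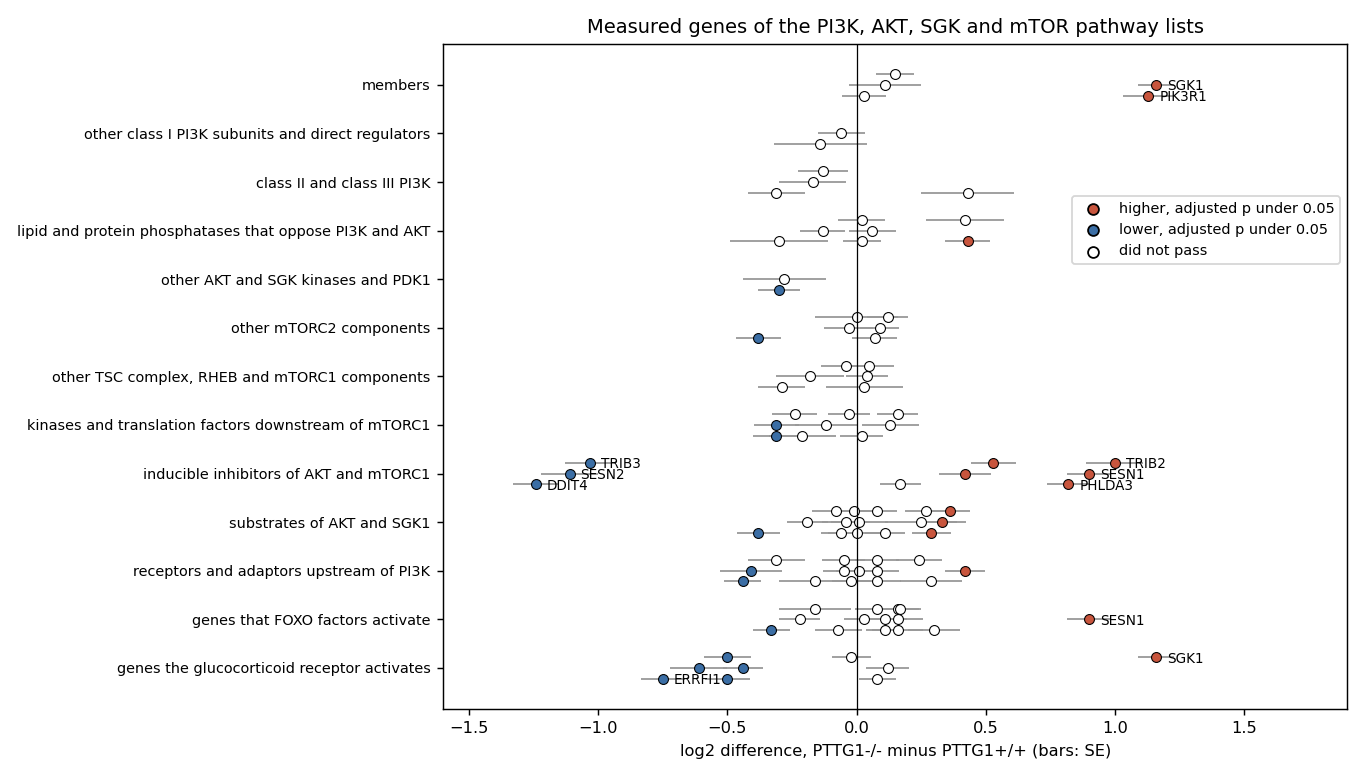
Log2 difference, PTTG1-/- minus PTTG1+/+, of every tested gene of the members and the 12 pathway lists, 1 row a list, with SE bars. Red and blue points passed upward and downward at an adjusted p under 0.05 and white points did not. Genes that differ by 0.7 or more are named: they lie in the members, the inducible inhibitors and the FOXO and glucocorticoid receptor rows.

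The inducible inhibitors of AKT and mTORC1 were the list with the most calls. Of 10 genes 9 were tested, 5 rose and 3 fell, where 9.58% of all genes rose and 7.79% fell, with a median difference of 0.42. The lists were chosen with earlier results of these data known, so this count is a description and not a test of the list. Genes of 1 family moved apart. Among the REDD proteins, which act through TSC2 to turn mTORC1 off, DDIT4 (REDD1) was at 12.07, 12 and 12.25 in PTTG1+/+ and at 10.87, 10.93 and 10.79 in PTTG1-/- samples, a difference of -1.24 (SE 0.088, adjusted p = 3.8e-05), or 2.36-fold lower. Its relative DDIT4L (REDD2) rose by 0.53 (SE 0.087, adjusted p = 0.00435), from 7.61, 7.73 and 7.79 to 8.20, 8.15 and 8.35.

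The sestrins, which hold back mTORC1 when amino acids are short, split in the same manner. SESN1 was at 7.48, 7.58 and 7.63 against 8.55, 8.34 and 8.49, a rise of 0.90 (SE 0.086, adjusted p = 0.00022), or 1.87-fold. SESN2 was at 6.84, 6.70 and 6.87 against 5.71, 5.90 and 5.49, a difference of -1.11 (SE 0.11, adjusted p = 0.000293), or 2.15-fold lower. Its unnormalized intensities in the PTTG1-/- samples, 91.6 to 100.3, were close to the lowest called above background, which limits how well its fold is known. Without background correction the SESN2 difference was -0.71. No sample of either gene lay on the other line's side. CASTOR1, an arginine sensor that inhibits mTORC1 through GATOR2, rose by 0.42 (SE 0.10, adjusted p = 0.024), a call that was lost without PTTG1+/+ sample 2 or 3 or PTTG1-/- sample 1 or 2 (adjusted p = 0.058 to 0.0838).

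Tribbles pseudokinases, some of which bind AKT, also differed in direction. TRIB3 was at 11.22, 11.28 and 11.43 against 10.43, 10.31 and 10.10 (difference -1.03, SE 0.10, adjusted p = 0.000293), 2.05-fold lower. TRIB2 was at 5.96, 6.40 and 6.27 against 7.14, 7.22 and 7.25, a difference of 1.00 (SE 0.11, adjusted p = 0.000564). TRIB1 was the 1 tested gene of the list that did not pass. PHLDA3, a p53 target that competes with AKT for membrane lipid, was at 6.69, 6.48 and 6.56 against 7.36, 7.47 and 7.37 (difference 0.82, SE 0.083, adjusted p = 0.000338). DDIT4 and TRIB3 were in the same PCR follow-up of these arrays, which lists both as down-regulated. SESN2, TRIB2, PHLDA3, DDIT4L and CASTOR1 are named here after their values were seen.

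**Figure D4:**
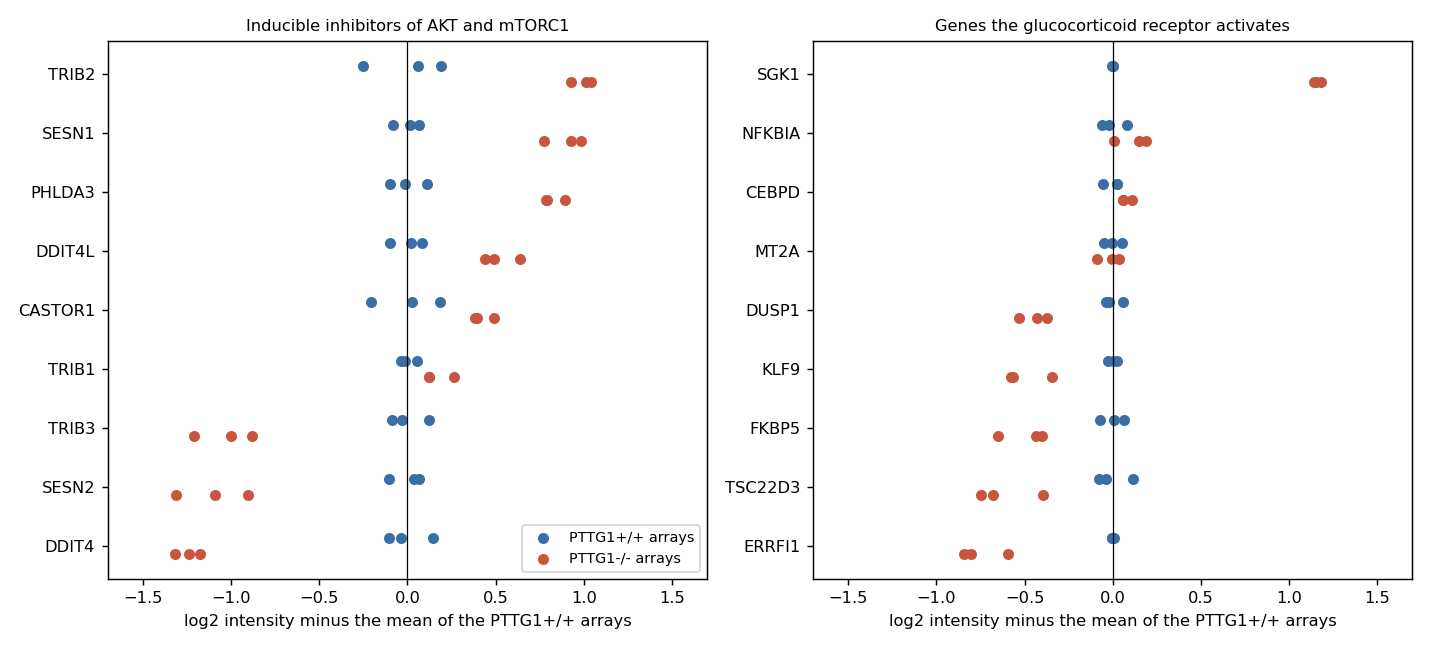
Log2 intensity of each sample minus the mean of the PTTG1+/+ samples, for the tested inducible inhibitors of AKT and mTORC1 (left) and genes that the glucocorticoid receptor activates (right). Blue points are PTTG1+/+ and red points PTTG1-/- samples, 3 each. Among genes that passed, in PTTG1-/- samples DDIT4, SESN2 and TRIB3 lie left of 0 and 5 inhibitors lie right of it, and SGK1 lies right of 0 and 5 genes of the receptor left of it. TRIB1, NFKBIA, CEBPD and MT2A did not pass and lie within 0.3 of 0.

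Of 18 substrates of AKT and SGK1, 15 were tested, 3 rose, 1 fell and 11 did not pass, where 9.58% of all genes rose and 7.79% fell, with a median of 0.01. NDRG2, a close relative of the SGK1 substrate NDRG1, was at 7.12, 7.19 and 7.27 against 7.62, 7.52 and 7.51 (difference 0.36, SE 0.079, adjusted p = 0.0155). Its second probe, ILMN_1670535, did not pass (0.23, SE 0.26, adjusted p = 0.633 over probes). That probe was above background on only 4 of the 6 arrays, with unnormalized intensities of 65.6 to 98.3, which limits how well its difference is known. GSK3B, a kinase that AKT inhibits, rose by 0.29 (SE 0.074, adjusted p = 0.0274), and FOXO1, a transcription factor that AKT and SGK1 keep out of the nucleus and which was named after its values were seen, by 0.33 (SE 0.093, adjusted p = 0.0402). WNK1, a kinase upstream of sodium transport, differed by -0.38 (SE 0.083, adjusted p = 0.0149). All 4 calls were lost in some fits that left out 1 sample, while the differences kept their direction. Leaving out each sample in turn gave 0.32 to 0.39 (NDRG2), -0.45 to -0.34 (WNK1), 0.25 to 0.32 (GSK3B) and 0.25 to 0.39 (FOXO1). NDRG2 did not pass without PTTG1+/+ sample 1 or 2 or PTTG1-/- sample 1 (adjusted p = 0.0538 to 0.0611), and WNK1 without PTTG1+/+ sample 1 or 3 or PTTG1-/- sample 2 (adjusted p = 0.0524 to 0.056). GSK3B did not pass without any 1 sample other than PTTG1-/- sample 3 (adjusted p = 0.0515 to 0.119), and FOXO1 without PTTG1+/+ sample 1 or 3 or PTTG1-/- sample 1 or 2 (adjusted p = 0.0863 to 0.127). In the limma fit over all probes FOXO1 did not pass (adjusted p = 0.0564).

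Upstream of PI3K, 14 of 22 receptors and adaptors were tested, 1 rose and 2 fell, where 17.4% of all genes passed in either direction, with a median of 0. IRS1, the insulin receptor substrate that docks PIK3R1, was at 8.87, 8.80 and 8.82 against 8.38, 8.40 and 8.40, a difference of -0.44 (SE 0.071, adjusted p = 0.00386). SHC1, an adaptor of receptor tyrosine kinases, was at 11.51, 11.39 and 11.34 against 11.87, 11.77 and 11.85 (difference 0.42, SE 0.079, adjusted p = 0.00809). Its second probe, ILMN_1812570, gave 0.28 (adjusted p = 0.125). MET, the receptor of hepatocyte growth factor, differed by -0.41 (SE 0.12, adjusted p = 0.0414), and the call was lost without any 1 sample other than PTTG1-/- sample 3 (adjusted p = 0.0838 to 0.135). In the limma fit over all probes MET did not pass (adjusted p = 0.0555).

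Of 22 genes that FOXO factors are known to activate, 14 were tested, 1 rose (SESN1, above) and 1 fell, where 17.4% of all genes passed in either direction, with a median of 0.11. KLF6, a zinc finger transcription factor, was at 10.68, 10.63 and 10.69 against 10.39, 10.35 and 10.29 (difference -0.33, SE 0.072, adjusted p = 0.0154), and the call was lost without any 1 of the PTTG1+/+ samples or PTTG1-/- sample 2 (adjusted p = 0.05 to 0.055). CITED2, a transcriptional coregulator, differed by 0.30 without overlap and did not pass (adjusted p = 0.0689), although it did under 4 other settings (adjusted p = 0.0365 to 0.0411).

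SGK1 is also in the list of genes that the glucocorticoid receptor activates, which like the others was chosen with earlier results of these data known. None of the other 8 tested genes of that list rose, by limma or at an unadjusted p under 0.05. Activity of the receptor was not measured, and its part in the level of SGK1 was not tested. Of 11 listed genes 9 were tested: SGK1 rose, 5 fell and 3 did not pass, with a median of -0.44, where 9.58% of all genes were higher and 7.79% lower. ERRFI1, an inhibitor of the EGF receptor, was at 12.97, 12.98 and 12.97 against 12.13, 12.17 and 12.38 (difference -0.75, SE 0.086, adjusted p = 0.000667), and KLF9 was at 8.52, 8.55 and 8.57 against 7.97, 7.98 and 8.20 (difference -0.50, SE 0.086, adjusted p = 0.00523). FKBP5, a co-chaperone of the receptor, differed by -0.50 (SE 0.091, adjusted p = 0.00679). TSC22D3 (GILZ) differed by -0.61 (SE 0.11, adjusted p = 0.0056), with -0.47 on its second probe, ILMN_2376403 (adjusted p = 0.0211 over probes), and DUSP1, a phosphatase of MAP kinases, by -0.44 (SE 0.078, adjusted p = 0.00575). None of the 5 overlapped between the lines, nor did 36.1% of all genes, and the 5 had already passed on these same samples. By the methods' t-test 3 of the 5 passed, as did 936 of all 10642 genes in either direction. FKBP5, TSC22D3 and DUSP1 are named after their values were seen.

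Over all these lists, 92 of the 126 genes other than the members were tested, 10 rose, 16 fell and 66 did not pass, where 9.58% of all genes rose and 7.79% fell, with a median difference of 0. Of these 26 calls, 15 held without each sample in turn and 11 were lost without at least 1. SGK1 and PIK3R1 passed without each sample in turn, with differences of 1.14 to 1.16 for SGK1 and 1.07 to 1.21 for PIK3R1.

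The genes whose levels were most like those of SGK1 over the 6 samples were HEY2 (Pearson's r = 0.9995), ACAT1 (0.9992), TENM3 (0.9991) and CALB2 (0.9988), which were 1.73, 0.80, 1.57 and 1.15 higher in PTTG1-/- cells on the log2 scale. For PIK3R1 they were DFFB (0.9991), VSIR (0.9982), FXYD5 (0.9976) and WIPI1 (0.997), which were 0.40, 1.01, 0.50 and 0.45 higher. SGK1 and PIK3R1 themselves had r = 0.9793. These correlations describe 6 samples that fall into the pair of lines, so they mostly restate the difference between the lines.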

How the data were processed

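RNA of 3 PTTG1+/+ and 3 PTTG1-/- HCT116 samples was measured on 1-colour arrays. The authors deposited unnormalized intensities, a detection fraction per probe and array that rises with intensity (1 minus it was used as the detection p), and their own log2 values, quantile-like with a median of 6.07 on every array, whose background correction is not known. The methods name the manufacturer's protocol and Partek; normalization is not given in the sources used here. In R 4.3.3, limma 3.58.1 corrected background (neqc, offset 16) and normalized by quantiles. Probes with a detection p under 0.05 on at least 3 of 6 arrays were kept (17357 of 47310; 12 lines without a probe name were left out). Each gene was its probe with the highest mean (10642 genes), named through the platform annotation, which names 30107 probes with 1 gene and leaves 17195 unnamed here. lmFit and eBayes were used with Benjamini-Hochberg adjustment over all genes, or over all probes for single probes, at a threshold of 0.05. The method was tested on simulated data.

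The members, the 12 other gene lists and the tests were chosen with earlier results of these data known. Named are the members, PTTG1, up to 3 genes a list with the smallest p and the 4 genes most like SGK1 and PIK3R1, and others where the text says so. Promoters are RefSeq windows of GRCh38.p14. Alternatives were other background corrections, normalizations, filters, variance models and thresholds, the authors' log2 values, the t-test that the methods name, a block for the replicate number, and leaving out each array. The number of arrays limits the precision.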

Additional observations from a re-analysis of the deposited data

How the results depend on the processing

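SGK1 and PIK3R1 passed under each of the 19 alternatives run, with differences of 0.88 to 1.18 (adjusted p at most 0.000658) for SGK1 and 0.87 to 1.21 (adjusted p at most 0.0195) for PIK3R1. The count of members that passed stayed at 2 genes and 4 probes. Over 55 gene and probe results there were 1036 alternative values. Of these, 931 kept their side of the threshold, 95 lost the call and 10 gained one. Where either fit passed, 0 changed sign. Some small differences that passed in neither fit did change sign, as for PIK3CB (0.11, down to -0.05) and TSC2 (0.03, down to -0.03). Of the 26 calls followed beside the members, 12 passed under every alternative. By the methods' t-test with adjustment, 11 of these calls were lost (INPPL1, SGK3, MLST8, PDCD4, RPS6KB1, WNK1, MET, CASTOR1, FKBP5, TSC22D3 and FOXO1, adjusted p = 0.0539 to 0.175), and the phosphatase, mTORC2 and mTORC1 lists had 0 calls. Averaged over all their kept probes, WNK1 and NDRG2 did not pass. Of the 10 gains, 4 were CITED2 (without background correction, with an offset of 50, with the authors' values and with a trended robust variance model), 2 RHEBL1 under stricter filters (adjusted p = 0.0469 and 0.0484) and 4 came from leaving out a sample.

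The number of genes that differed between the lines, 1849, was 1210 with median scaling, 1044 without normalization between arrays, 936 with the methods' t-test and 742 at an adjusted p under 0.01, and 1010 to 2222 when 1 sample was left out. For probes, 2215 became 1422, 1212, 1020 and 798 under these settings, and 1113 to 2543 when 1 sample was left out. Among the counts with 1 sample left out, the lowest came without PTTG1+/+ sample 2 and the highest without PTTG1-/- sample 3.

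Same-numbered samples of the lines deviated from their line's mean with correlations of -0.07, 0 and -0.12, which show no pairing by number. These values cannot exclude pairing, since normalization by quantiles removes shifts of a whole array. The sources used here do not say whether same-numbered samples were handled together. With the replicate block 1346 genes and 1351 probes passed, SGK1 and PIK3R1 kept their differences of 1.16 and 1.13, and 5 of the listed calls were lost (SGK3, PDCD4, GSK3B, MET and FOXO1).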
